A study of Mus musculus with 10 samples.

Results

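The genes of voltage-gated calcium channels and of hyperpolarization-activated cyclic nucleotide-gated (HCN) channels were described in RNA sequencing of mouse dorsal root ganglia, the clusters that hold the cell bodies of sensory neurons. Members were the rows whose symbol begins with Cacna1, Cacna2d, Cacnb, Cacng or Hcn. This gave 29 of the 23923 genes in the deposited table: 10 alpha1, 4 alpha2delta, 4 beta, 7 gamma and 4 HCN genes. The 5 samples named Kif2a_cKO were Kif2a fl/fl with Avil cre, in which Avil, a gene of sensory neurons, drives the recombinase. The 5 samples named control were Kif2a fl/fl without cre. The floxed allele was therefore shared by all 10 samples, and the presence of cre cannot be told apart from the deletion of Kif2a, a kinesin that takes microtubules apart. All mice were 1 month old, and the polyadenylated fraction of ganglion RNA was sequenced. The labels number the samples without naming the animals, so the p-values refer to the spread among these 10 libraries, which may be partly technical.

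Calcium channels of this family open when the membrane depolarizes. The alpha1 subunit forms the pore and sets the channel type: the Cav1 (L-type) genes Cacna1c, Cacna1d, Cacna1f and Cacna1s, the Cav2 genes Cacna1a (P/Q-type), Cacna1b (N-type) and Cacna1e (R-type), which trigger transmitter release, and the Cav3 (T-type) genes Cacna1g, Cacna1h and Cacna1i, which open near the resting potential. The alpha2delta subunit outside the cell and the beta subunit inside it bring channels to the membrane, and the gamma proteins include regulators of AMPA-type glutamate receptors. HCN channels open on hyperpolarization, carry the inward current called Ih and respond to cyclic AMP. In sensory neurons N-type and T-type channels, alpha2delta-1 and HCN2 are known for their part in pain signalling.

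Upstream sequences are shown for 3 members, chosen by hand to lie at different levels. Cacna2d1 (13.0 CPM per kilobase of exon over the 10 libraries) and Hcn2 (58.4) lay among the higher members, and Cacna1i (1.58) among the lower ones. CPM is the count of a gene per 1000000 counts of its library. A start in RefSeq that lay within 10 bases of the GENCODE start was the condition for showing a gene, and 7 of the 21 members with a RefSeq promoter entry met it. Each sequence holds the 250 bases before the start, 5′ to 3′ on the gene's strand (RefSeq, GRCm38.p6, plus strand in each case), at chr5:15934441-15934690 for Cacna2d1, chr10:79716384-79716633 for Hcn2 and chr15:80286988-80287237 for Cacna1i. Capitals mark GC boxes, the letters GGGCGG on either strand, with overlapping matches counted.
Cacna2d1: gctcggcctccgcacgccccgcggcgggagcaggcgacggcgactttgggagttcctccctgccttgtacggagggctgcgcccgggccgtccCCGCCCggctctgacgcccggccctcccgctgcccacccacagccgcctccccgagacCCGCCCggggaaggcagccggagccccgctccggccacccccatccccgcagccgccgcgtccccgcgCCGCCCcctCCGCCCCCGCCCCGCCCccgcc
Hcn2: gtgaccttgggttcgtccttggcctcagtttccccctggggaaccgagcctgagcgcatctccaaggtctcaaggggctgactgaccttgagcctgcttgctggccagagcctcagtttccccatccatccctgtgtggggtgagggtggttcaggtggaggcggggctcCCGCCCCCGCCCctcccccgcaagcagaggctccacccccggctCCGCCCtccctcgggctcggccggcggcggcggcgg
Cacna1i: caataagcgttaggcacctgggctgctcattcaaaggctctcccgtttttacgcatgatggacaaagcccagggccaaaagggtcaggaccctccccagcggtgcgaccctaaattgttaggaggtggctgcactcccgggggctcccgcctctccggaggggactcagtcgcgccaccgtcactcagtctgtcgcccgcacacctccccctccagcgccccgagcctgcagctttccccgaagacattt
GC boxes numbered 6 before Cacna2d1, 3 before Hcn2 and 0 before Cacna1i. The members that met the condition and are not shown held 4 (Cacna2d3), 3 (Cacna1b), 2 (Cacng5) and 0 (Cacna1c). These counts are for the start that met the condition. Other RefSeq starts held 6 and 0 for Cacna1c and 0 for Cacng5. A relation of GC boxes to level was not tested. In the same window 32.7% of the 32851 RefSeq promoter entries of the mouse hold at least 1. CG dinucleotides numbered 36 before Cacna2d1, 16 before Hcn2 and 16 before Cacna1i, against a median of 6 over those entries. A match is a description of these letters and not evidence of a bound factor.

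The libraries were deep, and markers of central nervous tissue differed widely between them. Total counts ran from 28686616 to 73031457 in Kif2a_cKO and from 17506135 to 34500320 in controls. All 10 sensory neuron markers, Avil, Isl1, Prph and Scn10a among them, were present in every library, with a summed level of 7877 to 11009 CPM in Kif2a_cKO and 6827 to 11108 CPM in controls. All 18 markers of central nervous tissue (oligodendrocytes, astrocytes and spinal neurons) were in the table, and their summed level was 64.8 to 374 CPM in Kif2a_cKO and 104 to 2716 CPM in controls. Controls 3, 5 and 1 were the highest, at 2716, 899 and 871 CPM, and controls 2 and 4 the lowest of that group, at 104 and 111 CPM. Of these markers 6 were at 0 in at least 1 library: Slc32a1 and Gad2, which mark inhibitory spinal neurons, were at 0 in controls 2 and 4, and Gad2 also in Kif2a_cKO 2. Myelinating Schwann cell markers (6 genes) summed to 20744 to 32820 CPM in Kif2a_cKO and 28505 to 38784 CPM in controls, and satellite glia markers (5 genes) to 4896 to 6081 CPM in Kif2a_cKO and 4570 to 5594 CPM in controls. Apoe made up most of the satellite glia sum, which does not stand for each of the 5 genes. Kcnj10 and Glul were highest in control 3, at 314 and 603 CPM, where Apoe was lowest, at 3814 CPM. Of the 5 genes 3 had a log2 fold change above 0 and 2 below. Avil, whose locus drives the recombinase, had 383 ± 55.0 CPM in the Kif2a_cKO libraries and 678 ± 149 CPM in the control libraries (edgeR adjusted p = 0.351). The level of Kif2a over the whole gene was 69.0 ± 4.44 CPM in the Kif2a_cKO libraries and 70.2 ± 8.61 CPM in the control libraries (SD over 5 libraries, here and below), and since the labels do not name the floxed exons it does not check the deletion.

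No channel gene passed the test for a difference between Kif2a_cKO and controls. Counts were tested with edgeR's quasi-likelihood test over all 17439 genes with enough counts, a Benjamini-Hochberg adjusted p under 0.05 being called. Of the 29 members 27 were tested and 0 were called, the lowest adjusted p being 0.703, where 3 of all tested genes were called (0.0172%). At an unadjusted p under 0.05 there were 2 members (7.41%), Cacna1g and Cacng8, both lower in Kif2a_cKO, against 6.98% of all tested genes in either direction and 4.01% in the lower direction. DESeq2 called 0 members, against 0.185% of all genes, and had the same 2 at an unadjusted p under 0.05, against 7.18%. With limma-voom, which here gave each library a quality weight, 0 members were called, against 0.0229% of all tested genes, and 0 had an unadjusted p under 0.05, against 6.57%. The groups overlapped in all 27 members, while they did not overlap in 1.17% of all tested genes. These shares are near the background or below it. A p that misses the threshold does not show that levels were equal, so intervals are given for the abundant members, as percent differences of Kif2a_cKO from controls. These intervals take the samples as unpaired, and a fit with the replicate number as a block is described at the end.

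The fold changes were small for the abundant members and widely spread for the scarce ones. The median log2 fold change of the 27 members was -0.081, with 11 above 0 and 16 below, against a median of 0.0073 over all tested genes. This balance moved with the libraries: 6 were above 0 and 21 below without Kif2a_cKO 2, and 14 above and 13 below (median 0.0078) without Kif2a_cKO 5. With the central marker score described below as a covariate, 7 were above 0 and 20 below. In 17 members the 95% interval lay within 1.5-fold in either direction. The 10 with wider intervals were Cacna1g, Cacna1i, Cacna1s, Cacna2d2, Cacna2d4, Cacnb2, Cacng2, Cacng3, Cacng8 and Hcn2. In these bulk samples fewer cells of a type and less RNA per cell cannot be told apart.

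**Figure D1:**
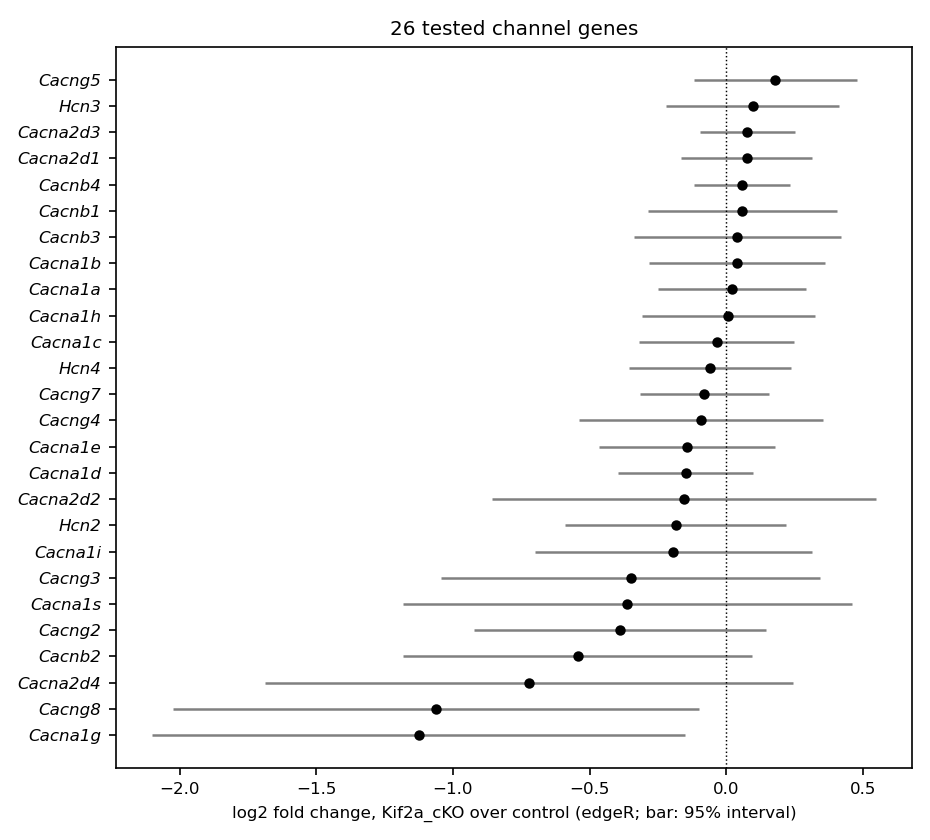
Log2 fold change of Kif2a_cKO over control (points) with its 95% interval (bars) for 26 of the tested channel genes, from edgeR with 5 libraries a group. The interval leaves out 0 in 2 genes, Cacna1g and Cacng8 at the bottom, neither of them called.

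Levels were compared between genes per kilobase of exon, because longer transcripts give more reads. Lengths and positions are those of GENCODE release 21 for mouse (GRCm38), the length being that of all annotated exons of a gene joined, so a gene with long exons that these cells do not use is understated. In 4 of the 5 classes the member at the top of the order was the same in both groups: Cacna1b among alpha1, Cacnb3 among beta, Cacng7 among gamma and Hcn2 among HCN genes. Among alpha2delta genes it was Cacna2d1 in Kif2a_cKO and Cacna2d2 in controls. Cacna2d1 had 13.4 ± 1.25 CPM per kilobase in Kif2a_cKO and 12.7 ± 2.05 in controls, and Cacna2d2 had 11.6 ± 3.77 CPM per kilobase in Kif2a_cKO and 13.0 ± 4.78 in controls, so their levels lay within their spread of each other.

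**Figure D2:**
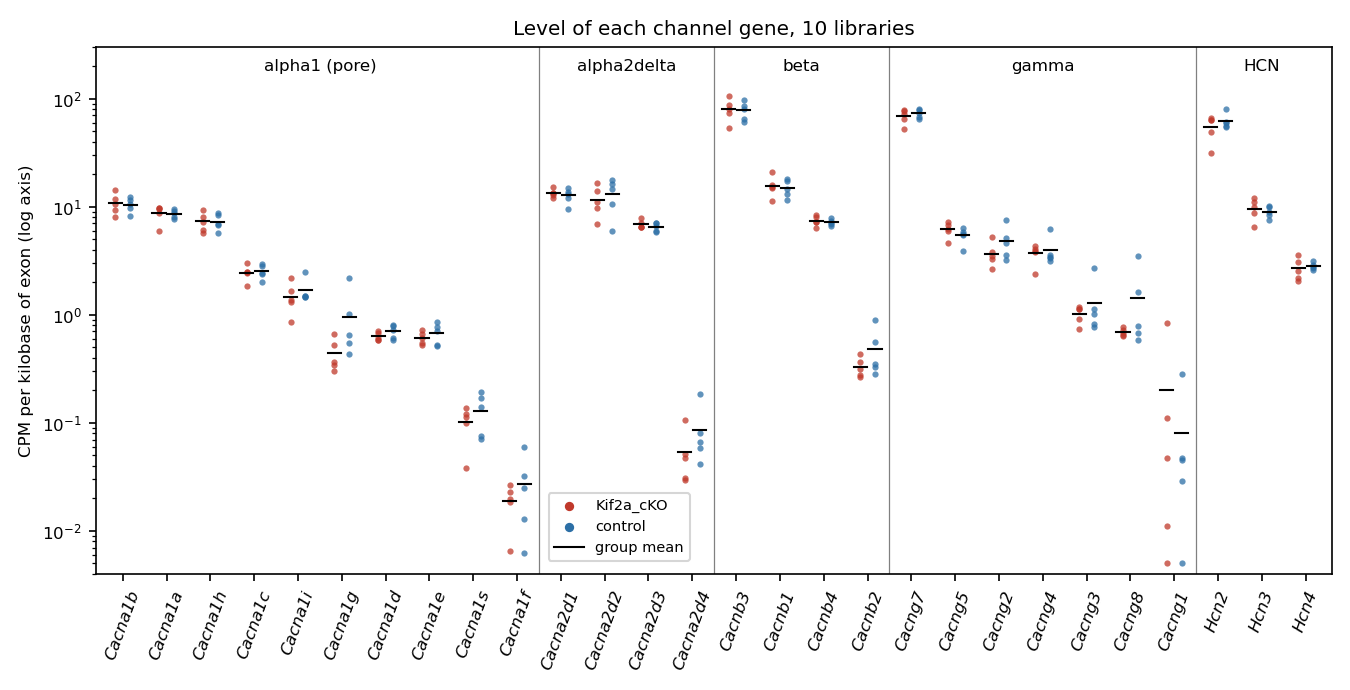
Level of 28 members in CPM per kilobase of exon (log axis), each point a library and each line a group mean, Kif2a_cKO left of control. Cacnb3, Cacng7 and Hcn2 stand highest in their classes, and the 2 libraries with 0 counts of Cacng1 are drawn near the lower edge.

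Cav2 genes made up most of the alpha1 transcripts, and none of the Cav2 genes was called. Per length they held 61.7% ± 1.2 of the summed alpha1 level in Kif2a_cKO and 59.7% ± 1.9 in controls. Cacna1b, the N-type pore (chromosome 2 from 24603887 to 24763152, minus strand), had 105, 141, 92.2, 117 and 79.9 CPM in Kif2a_cKO libraries 1 to 5, against 106, 121, 81.5, 114 and 96.8 CPM in control libraries 1 to 5. The groups overlapped, Kif2a_cKO 2 being the highest and Kif2a_cKO 5 the lowest of all (mean 107 ± 23.6 CPM in Kif2a_cKO and 104 ± 15.6 in controls; log2 fold change 0.04, SE 0.148, edgeR adjusted p = 0.983; 95% interval -17.7% to 28.6%). Cacna1a, the P/Q-type pore (chromosome 8 from 84388440 to 84640246, plus strand), had 109, 111, 99.9, 112 and 67.9 CPM in Kif2a_cKO libraries 1 to 5, against 86.8, 109.7, 92.3, 104 and 99.0 CPM in control libraries 1 to 5. Kif2a_cKO 5 stood alone below the others, and the rest of the libraries of both groups lay between 86.8 and 112 CPM (mean 99.8 ± 18.5 CPM in Kif2a_cKO and 98.3 ± 9.06 in controls; log2 fold change 0.023, SE 0.125, edgeR adjusted p = 0.990; 95% interval -15.8% to 22.6%). Per length Cacna1b had 10.8 ± 2.37 CPM per kilobase in Kif2a_cKO and 10.5 ± 1.57 in controls, and Cacna1a had 8.74 ± 1.62 CPM per kilobase in Kif2a_cKO and 8.61 ± 0.794 in controls. Cacna1b stood above Cacna1a in all 10 libraries on this scale. Cacna1e, the R-type pore (chromosome 1 from 154390731 to 154884501, minus strand), was scarcer, with 13.2, 18.1, 15.5, 16.7 and 13.7 CPM in Kif2a_cKO libraries 1 to 5, against 13.0, 13.2, 21.8, 17.96 and 19.3 CPM in control libraries 1 to 5. Its highest library was control 3, and the groups overlapped (mean 15.4 ± 2.05 CPM in Kif2a_cKO and 17.1 ± 3.86 in controls; log2 fold change -0.14, SE 0.149, edgeR adjusted p = 0.882).

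Among the T-type genes Cacna1h dominated, and Cacna1g had the lowest p of all members. Cacna1h, the main T-type pore of sensory neurons (chromosome 17 from 25374285 to 25433783, minus strand), averaged 71.4 ± 14.4 CPM over the Kif2a_cKO libraries and 71.1 ± 11.9 CPM over the control libraries (log2 fold change 0.0083, SE 0.145, edgeR adjusted p = 0.998). Its 95% interval ran from -19.2% to 25.2%. Cacna1g (chromosome 11 from 94408391 to 94474198, minus strand) had 3.67, 3.50, 3.06, 6.67 and 5.36 CPM in Kif2a_cKO libraries 1 to 5, against 6.53, 4.37, 22.1, 5.53 and 10.2 CPM in control libraries 1 to 5. Control 3 was more than 3 times the highest Kif2a_cKO library and control 5 came next, while controls 1, 2 and 4 lay inside the Kif2a_cKO range. The edgeR log2 fold change was -1.13 (SE 0.439), with an unadjusted p of 0.0277 and an adjusted p of 0.703. Cacna1i (chromosome 15 from 80287238 to 80398279, plus strand), known as a thalamic T-type pore, averaged 14.5 ± 4.78 CPM over the Kif2a_cKO libraries and 16.6 ± 4.55 CPM over the control libraries (log2 fold change -0.19, SE 0.231, edgeR adjusted p = 0.912). Its controls other than control 3 lay between 14.3 and 14.8 CPM, and control 3 stood at 24.7 CPM. T-type genes together held 28.3% ± 1.6 of the alpha1 level per length in Kif2a_cKO and 30.1% ± 2.2 in controls.

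L-type genes were the smallest share, at 9.97% ± 1.03 in Kif2a_cKO and 10.2% ± 0.41 in controls. Cacna1c, the L-type pore of heart, smooth muscle and neurons (chromosome 6 from 118587240 to 119196418, minus strand), averaged 52.0 ± 9.05 CPM over the Kif2a_cKO libraries and 53.3 ± 7.99 CPM over the control libraries (log2 fold change -0.035, SE 0.130, edgeR adjusted p = 0.984; 95% interval -19.7% to 18.7%). Cacna1d, an L-type pore that opens at more negative potentials (chromosome 14 from 30039939 to 30491455, minus strand), had 8.52, 7.42, 8.97, 7.75 and 7.35 CPM in Kif2a_cKO libraries 1 to 5, against 9.10, 7.74, 10.03, 7.41 and 9.90 CPM in control libraries 1 to 5. Controls 1, 3 and 5 were its 3 highest libraries, and the groups overlapped (mean 8.0 ± 0.714 CPM in Kif2a_cKO and 8.84 ± 1.21 in controls; log2 fold change -0.15, SE 0.114, edgeR adjusted p = 0.818). Cacna1c overlaps Dcp1b on the opposite strand (4343 counts in all), and Cacna1d overlaps Chdh and Dcp1a (3654 and 4083 counts). The strandedness of the counts is not given in the sources used here, so reads in those overlaps cannot be assigned with certainty. The same limit holds for Cacng2 with A730060N03Rik (247 counts) and for Hcn3 with Pklr (120 counts). Cacna1s, the pore of skeletal muscle, averaged 0.669 ± 0.251 CPM over the Kif2a_cKO libraries and 0.849 ± 0.357 CPM over the control libraries (log2 fold change -0.36, SE 0.381, edgeR adjusted p = 0.884). Cacna1f, the pore of retinal photoreceptor synapses, had 71 counts over the 10 libraries and was not tested, at 0.172 ± 0.0694 CPM over the Kif2a_cKO libraries and 0.247 ± 0.187 CPM over the control libraries.

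The alpha2delta genes were led by Cacna2d1 and Cacna2d2, and the spread between libraries was wide for Cacna2d2. Cacna2d1, the alpha2delta-1 subunit bound by gabapentin (chromosome 5 from 15934691 to 16374511, plus strand), had 165, 190.5, 159, 166 and 148 CPM in Kif2a_cKO libraries 1 to 5, against 163, 186, 119, 171 and 149 CPM in control libraries 1 to 5. Control 3 was the lowest of the 10, and the other controls lay within the Kif2a_cKO range (mean 166 ± 15.5 CPM in Kif2a_cKO and 158 ± 25.4 in controls; log2 fold change 0.075, SE 0.111, edgeR adjusted p = 0.936; 95% interval -10.9% to 24.5%). Cacna2d2, which also binds gabapentin (chromosome 9 from 107399612 to 107529343, plus strand), had 77.1, 55.0, 110.1, 133 and 87.6 CPM in Kif2a_cKO libraries 1 to 5, against 46.8, 141, 83.7, 128 and 116 CPM in control libraries 1 to 5. Kif2a_cKO 2 and control 1 were low and Kif2a_cKO 4 and control 2 were high, so that each group spanned more than 2-fold (mean 92.5 ± 30.0 CPM in Kif2a_cKO and 103 ± 38.0 in controls; log2 fold change -0.15, SE 0.314, edgeR adjusted p = 0.961; 95% interval -44.8% to 46.2%). The coefficient of variation of Cacna2d2 was 32.4% in Kif2a_cKO and 36.8% in controls, that of Cacna2d1 was 9.34% in Kif2a_cKO and 16.1% in controls, and that of Cacna2d3 was 8.77% in Kif2a_cKO and 9.03% in controls.

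Cacna2d3, a subunit linked to heat pain sensing in flies and mice (chromosome 14 from 28904943 to 29721864, minus strand), was among the most even members. It had 56.6, 56.7, 61.5, 68.3 and 56.0 CPM in Kif2a_cKO libraries 1 to 5, against 52.1, 61.9, 51.0, 61.6 and 57.1 CPM in control libraries 1 to 5. Kif2a_cKO 4 was the highest and control 3 the lowest, the groups overlapped, and the interval from -6.48% to 19.1% was one of the narrowest (mean 59.8 ± 5.24 CPM in Kif2a_cKO and 56.8 ± 5.13 in controls; log2 fold change 0.077, SE 0.0805, edgeR adjusted p = 0.882). Cacna2d4, best known from the retina (chromosome 6 from 119236526 to 119352407, plus strand), was scarce, with 0.294, 0.451, 0.278, 0.484 and 1.011 CPM in Kif2a_cKO libraries 1 to 5, against 0.770, 0.394, 1.74, 0.627 and 0.556 CPM in control libraries 1 to 5. Control 3 and Kif2a_cKO 5 stood apart as the highest of their groups (mean 0.504 ± 0.298 CPM in Kif2a_cKO and 0.818 ± 0.533 in controls; log2 fold change -0.72, SE 0.446, edgeR adjusted p = 0.746). Cacna2d4 had 223 counts over the 10 libraries and overlaps Lrtm2 on the opposite strand, which had 2199, so its counts cannot be told apart from those of Lrtm2 in the overlap.

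Cacnb3 was the leading beta gene, and no beta gene was called. Beta subunits bind the inner face of the pore and favour its transport to the membrane. Cacnb3 (chromosome 15 from 98630840 to 98644529, plus strand) had 323, 424, 294, 350.3 and 213 CPM in Kif2a_cKO libraries 1 to 5, against 320.2, 392.3, 243, 343 and 262 CPM in control libraries 1 to 5. Kif2a_cKO 2 was the highest library and Kif2a_cKO 5 the lowest, with the controls between them (mean 321 ± 77.2 CPM in Kif2a_cKO and 312 ± 60.8 in controls; log2 fold change 0.041, SE 0.175, edgeR adjusted p = 0.987; 95% interval -20.9% to 33.9%). Per length it held 77.2% ± 1.8 of the beta level in Kif2a_cKO and 77.3% ± 2.0 in controls. Cacnb1, also the beta subunit of skeletal muscle (chromosome 11 from 98001508 to 98023034, minus strand), had 68.9, 94.1, 67.6, 71.2 and 50.6 CPM in Kif2a_cKO libraries 1 to 5, against 66.7, 81.6, 58.9, 78.9 and 52.6 CPM in control libraries 1 to 5. It ranked the libraries much as Cacnb3 did, with Kif2a_cKO 2 at the top and Kif2a_cKO 5 and control 5 at the bottom (mean 70.5 ± 15.5 CPM in Kif2a_cKO and 67.7 ± 12.5 in controls; log2 fold change 0.059, SE 0.159, edgeR adjusted p = 0.973). Cacnb4, a neuronal beta subunit whose loss causes ataxia in mice (chromosome 2 from 52428320 to 52676831, minus strand), averaged 66.7 ± 7.18 CPM over the Kif2a_cKO libraries and 64.0 ± 4.05 CPM over the control libraries (log2 fold change 0.059, SE 0.0812, edgeR adjusted p = 0.933; 95% interval -7.77% to 17.6%). Cacnb2, the main beta subunit of the heart (chromosome 2 from 14603088 to 14987908, plus strand), had 4.79, 4.13, 3.51, 5.77 and 3.67 CPM in Kif2a_cKO libraries 1 to 5, against 4.31, 4.66, 11.8, 3.71 and 7.41 CPM in control libraries 1 to 5. Controls 3 and 5 were its highest libraries and controls 1, 2 and 4 lay within the Kif2a_cKO range (mean 4.37 ± 0.924 CPM in Kif2a_cKO and 6.37 ± 3.34 in controls; log2 fold change -0.54, SE 0.293, edgeR adjusted p = 0.719).

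Among the gamma genes Cacng7 held 81.7% ± 0.7 of the level per length in Kif2a_cKO and 81.2% ± 2.7 in controls. Cacng7, a regulator of AMPA receptors, had 175, 189, 159, 192 and 127 CPM in Kif2a_cKO libraries 1 to 5, against 179.7, 189, 195, 159 and 166 CPM in control libraries 1 to 5 (chromosome 7 from 3332955 to 3368221, plus strand). Kif2a_cKO 5 was the lowest library and the other 9 lay between 159 and 195 CPM (mean 168 ± 26.5 CPM in Kif2a_cKO and 178 ± 15.2 in controls; log2 fold change -0.081, SE 0.109, edgeR adjusted p = 0.930; 95% interval -19.7% to 11.4%). Cacng5, its closest relative (chromosome 11 from 107874605 to 107915055, minus strand), had 27.7, 24.0, 22.7, 25.9 and 17.8 CPM in Kif2a_cKO libraries 1 to 5, against 21.1, 24.5, 14.96, 22.3 and 21.6 CPM in control libraries 1 to 5. Control 3 was the lowest and Kif2a_cKO 1 the highest (mean 23.6 ± 3.78 CPM in Kif2a_cKO and 20.9 ± 3.56 in controls; log2 fold change 0.18, SE 0.138, edgeR adjusted p = 0.817). Cacng2, or stargazin, which carries AMPA receptors to synapses (chromosome 15 from 77991748 to 78120028, minus strand), had 20.8, 19.1, 17.9, 28.7 and 14.7 CPM in Kif2a_cKO libraries 1 to 5, against 28.1, 19.5, 41.7, 17.6 and 25.5 CPM in control libraries 1 to 5. Control 3 was far above the rest, followed by Kif2a_cKO 4, control 1 and control 5 (mean 20.2 ± 5.22 CPM in Kif2a_cKO and 26.5 ± 9.52 in controls; log2 fold change -0.39, SE 0.242, edgeR adjusted p = 0.751).

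Of the other gamma genes, Cacng8 had the second-lowest p of all members and lies next to Cacng7 on chromosome 7. Cacng8, an AMPA receptor regulator best known from the hippocampus (chromosome 7 from 3390683 to 3415648, plus strand), had 1.59, 1.53, 1.70, 1.80 and 1.48 CPM in Kif2a_cKO libraries 1 to 5, against 1.85, 1.58, 8.17, 1.37 and 3.81 CPM in control libraries 1 to 5. The 5 Kif2a_cKO libraries and controls 1, 2 and 4 lay between 1.37 and 1.85 CPM, and controls 5 and 3 stood above them. The edgeR log2 fold change was -1.06 (SE 0.440), with an unadjusted p of 0.0333 and an adjusted p of 0.703. Cacng3, a cortical AMPA receptor regulator (chromosome 7 from 122670492 to 122769393, plus strand), had 2.06, 3.15, 3.13, 3.27 and 2.53 CPM in Kif2a_cKO libraries 1 to 5, against 2.83, 2.15, 7.49, 2.28 and 3.16 CPM in control libraries 1 to 5. Only control 3 left the range of 2.06 to 3.27 CPM that held the other 9 libraries (mean 2.83 ± 0.519 CPM in Kif2a_cKO and 3.58 ± 2.22 in controls; log2 fold change -0.35, SE 0.319, edgeR adjusted p = 0.855). Cacng4, another AMPA receptor regulator (chromosome 11 from 107732357 to 107794557, minus strand), averaged 13.2 ± 2.77 CPM over the Kif2a_cKO libraries and 14.1 ± 4.52 CPM over the control libraries (log2 fold change -0.093, SE 0.205, edgeR adjusted p = 0.966).

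Cacng1, the gamma subunit of skeletal muscle calcium channels (chromosome 11 from 107703218 to 107716522, minus strand), was not tested for lack of counts. It had 2, 4, 0, 1 and 31 counts in Kif2a_cKO 1 to 5, against 2, 1, 2, 0 and 12 counts in controls 1 to 5. Sample 5 of each group held most of them. The 0 counts allow a level of up to 0.0998 CPM in Kif2a_cKO 3 and up to 0.171 CPM in control 4 (3 counts of the library total, counting error only). All 13 skeletal muscle markers were in the table, none at 0 in any library, and their summed level was 17.5 to 221 CPM in Kif2a_cKO and 18.3 to 166 CPM in controls, the highest being Kif2a_cKO 5 and control 5. Their part in the Cacng1 counts was not tested.

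Hcn2 was the leading HCN gene and Hcn3 stood above Hcn4 per length in all 10 libraries. Hcn2, the cyclic AMP-sensitive channel of nociceptors (chromosome 10 from 79716634 to 79736108, plus strand), had 201, 204, 156, 211 and 101 CPM in Kif2a_cKO libraries 1 to 5, against 193, 188, 258, 179.7 and 174 CPM in control libraries 1 to 5. Control 3 was the highest library and Kif2a_cKO 5 the lowest, with the other 8 between 156 and 211 CPM (mean 175 ± 46.5 CPM in Kif2a_cKO and 199 ± 34.0 in controls; log2 fold change -0.19, SE 0.186, edgeR adjusted p = 0.875; 95% interval -33.6% to 16.4%). Hcn3, a member that responds little to cyclic AMP (chromosome 3 from 89146074 to 89160196, minus strand), had 36.1, 49.5, 41.0, 45.5 and 26.8 CPM in Kif2a_cKO libraries 1 to 5, against 37.0, 41.9, 31.3, 41.5 and 34.5 CPM in control libraries 1 to 5. Again Kif2a_cKO 5 was the lowest, and the controls lay within the Kif2a_cKO range (mean 39.8 ± 8.81 CPM in Kif2a_cKO and 37.2 ± 4.55 in controls; log2 fold change 0.10, SE 0.146, edgeR adjusted p = 0.936). Hcn4, the slow channel of the sinus node (chromosome 9 from 58823412 to 58863175, plus strand), averaged 16.5 ± 3.88 CPM over the Kif2a_cKO libraries and 17.2 ± 1.22 CPM over the control libraries (log2 fold change -0.06, SE 0.137, edgeR adjusted p = 0.968).

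In the summed level per length of Hcn2, Hcn3 and Hcn4, Hcn2 held 81.4% ± 2.4 in Kif2a_cKO and 83.8% ± 3.0 in controls. Its extremes were 78.8% in Kif2a_cKO 5 and 88.8% in control 3, and the other 8 libraries lay between 80.1% and 84.8%. Hcn3 held 14.5% ± 1.9 in Kif2a_cKO and 12.4% ± 2.4 in controls, with 16.2% in Kif2a_cKO 3 as its highest and 8.28% in control 3 as its lowest share. These shares cannot move with the scaling of a library, since every gene in the sum is scaled alike.

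**Figure D3:**
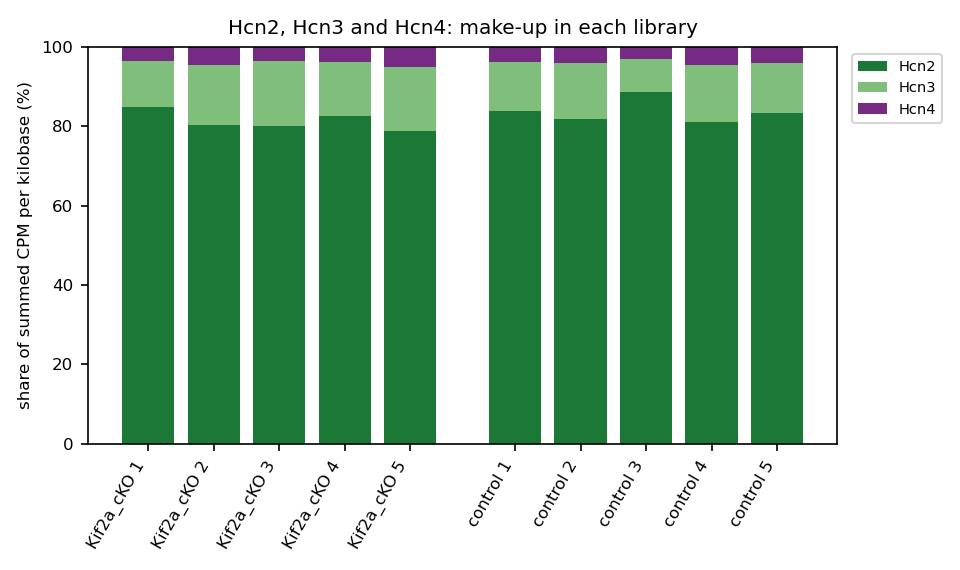
Share of Hcn2, Hcn3 and Hcn4 in their summed level (CPM per kilobase of exon, in percent), a bar for each library, Kif2a_cKO left of control. Hcn2 makes up 78.8% to 88.8%, with Kif2a_cKO 5 and control 3 at the ends.

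Control 3 and Kif2a_cKO 5 held most of the extremes among the tested members. The same counts were not made over all tested genes, so they are not shown to be particular to the channel genes. Of the 27 tested members, 12 had their highest level of the 10 libraries in control 3 and 5 had their lowest there. The 12 were Cacna1d, Cacna1e, Cacna1g, Cacna1i, Cacna2d4, Cacnb2, Cacng2, Cacng3, Cacng4, Cacng7, Cacng8 and Hcn2. Cacna1h, Cacna2d1, Cacna2d3 and Cacng5 were among those lowest in control 3, the library whose sensory neuron markers were also the lowest (6827 CPM). Kif2a_cKO 5, whose sensory neuron markers were the lowest of its group (7877 CPM), had the lowest level of 13 members and the highest of 0. Kif2a_cKO 2, whose sensory neuron markers were the highest of its group (11009 CPM), had the highest level of 9 members and the lowest of 0.

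Cacna1g, Cacng8, Cacna2d4, Cacnb2 and Cacng2, the 5 members with the lowest log2 fold changes, had their highest level in control 3, the library with the most central nervous tissue markers. The mean log2 CPM of the 18 central markers was 1.65, -0.473, 1.70, 2.48 and 1.81 in Kif2a_cKO 1 to 5, against 3.88, -0.177, 5.80, 0.0576 and 4.13 in controls 1 to 5. Of those 18 markers 16 were tested, and all 16 had a log2 fold change below 0 (median -2.31, 0 called). In 6 of the 16 the unadjusted edgeR p was under 0.05, against 4.01% of all tested genes in the lower direction. The part of these markers in the differences of the channel genes was not tested. Cacna1g had 6.53 to 22.1 CPM in controls 1, 3 and 5 and 4.37 to 5.53 CPM in controls 2 and 4. Cacng8 had 1.85 to 8.17 CPM in controls 1, 3 and 5 and 1.37 to 1.58 CPM in controls 2 and 4, and Cacng2 had 25.5 to 41.7 CPM in controls 1, 3 and 5 and 17.6 to 19.5 CPM in controls 2 and 4. The reverse order held for several abundant members: Cacna2d1 had 119 to 163 CPM in controls 1, 3 and 5 and 171 to 186 CPM in controls 2 and 4, and Cacnb3 had 243 to 320.2 CPM in controls 1, 3 and 5 and 343 to 392.3 CPM in controls 2 and 4.

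**Figure D4:**
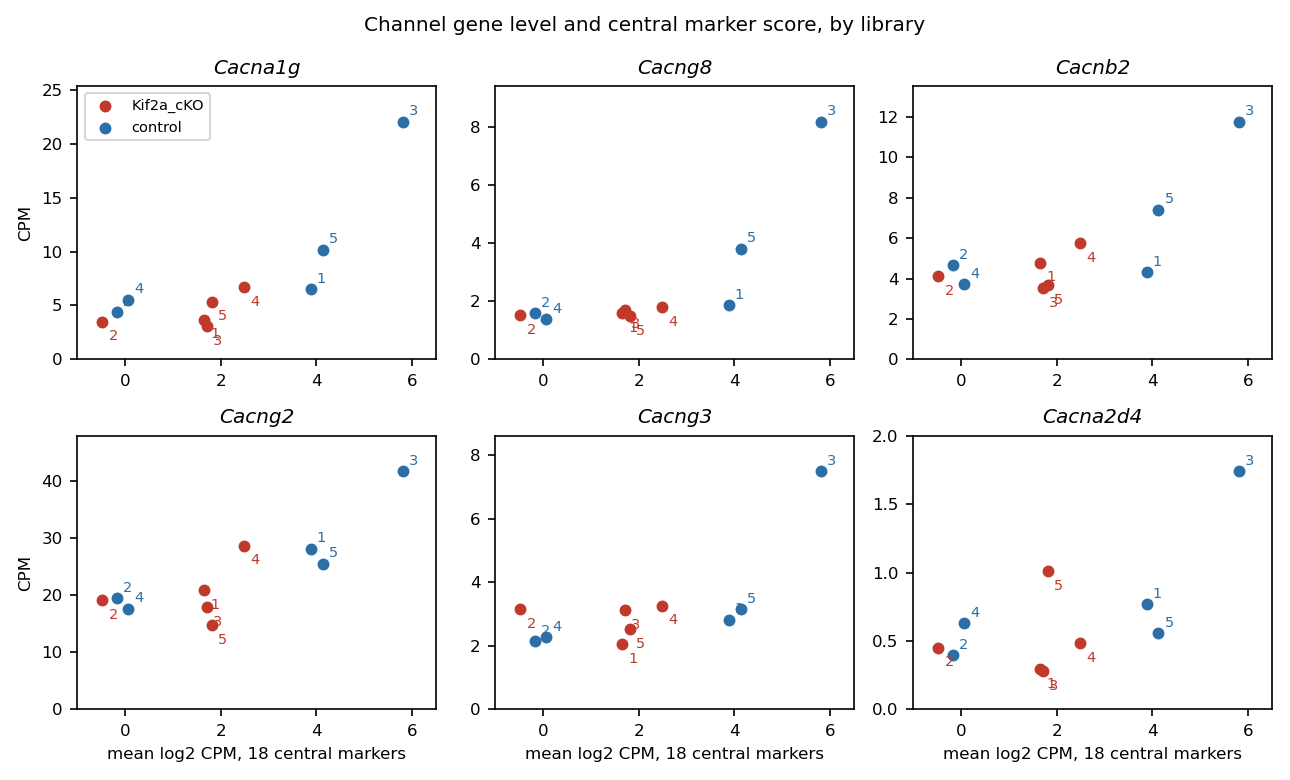
Level of 6 members (CPM) against the mean log2 CPM of the 18 central nervous tissue markers in the same library, with replicate numbers beside the points. Control 3 has the highest score and the highest level of Cacna1g, Cacng8, Cacnb2, Cacng2, Cacng3 and Cacna2d4.

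Leaving out control 3, or controls 1, 3 and 5, brought the fold changes of Cacna1g, Cacng8, Cacnb2, Cacna2d4 and Cacng2 closer to 0. These genes had been picked for their low fold changes and were highest in control 3. Leaving that library out was therefore bound to raise their fold changes, so these fits do not test a cause. The fold changes of some abundant members moved farther from 0. Without control 3 the log2 fold change of Cacna1g was -0.60 and that of Cacng8 was -0.44, with 0 members at an unadjusted p under 0.05 in edgeR, against 4.57% of all tested genes. Without controls 1, 3 and 5, which leaves 2 controls, it was -0.14 for Cacna1g and 0.13 for Cacng8, with 0 members at that level against 3.33%. With the central marker score as a covariate it was -0.52 for Cacna1g and -0.35 for Cacng8, again with 0 members at that level against 4.72%. Cacnb2 had a log2 fold change of -0.22 without control 3 and 0.066 without controls 1, 3 and 5, and Cacng2 had -0.18 and 0.13. Cacna2d2 had -0.54 and Cacna1c -0.24 without controls 1, 3 and 5, against -0.15 for Cacna2d2 and -0.035 for Cacna1c with all 10 libraries, and the unadjusted p of 0.0873 for Cacna2d2 was the lowest of the members in that fit. Kif2a_cKO 1, 3, 4 and 5 had scores below those of controls 1, 3 and 5 and above those of controls 2 and 4, so the score and the genotype can be told apart only in part.

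**Figure D5:**
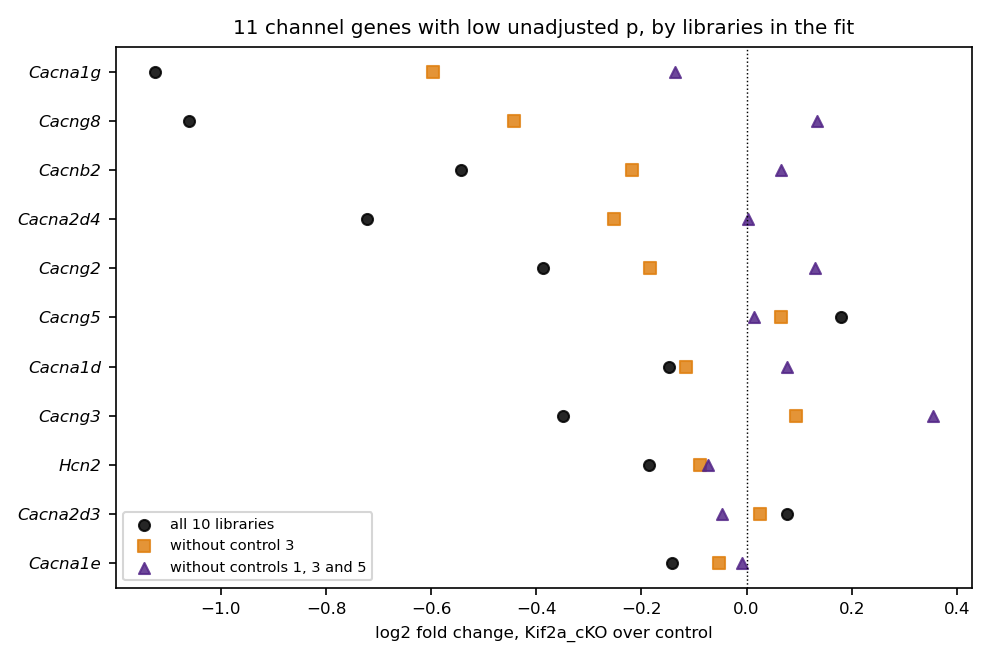
Log2 fold change of Kif2a_cKO over control for 11 of the 12 members with the lowest unadjusted p, in edgeR fits to all 10 libraries (circles), without control 3 (squares) and without controls 1, 3 and 5 (triangles). Cacna1g lies at -1.13, -0.60 and -0.14 in these fits, and Cacng8 at -1.06, -0.44 and 0.13.

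Genes that act with these channels were also not called. The list of calcium channel modulators and scaffolds had 21 genes, all tested, with 11 log2 fold changes above 0 and 10 below (median 0.026). It included Lrp1, a receptor that helps bring alpha2delta subunits to the membrane and is widely expressed, as the only gene at an unadjusted p under 0.05. Such a p was found in 6.98% of all tested genes, so 1 of 21 is near the background. In this list 0 genes were called, against 0.0172% of all tested genes. Lrp1 averaged 136 ± 5.95 CPM in Kif2a_cKO and 172 ± 39.5 CPM in controls (log2 fold change -0.34, SE 0.123, edgeR adjusted p = 0.703). Control 3 held its highest level, 242 CPM, and without that library its log2 fold change was -0.20. Calm2 and Calm3, which encode calmodulin, the calcium sensor on the alpha1 tail, stood at 0.18 (SE 0.0868) and 0.049 (SE 0.0841) on the log2 fold change scale.

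The 4 smaller lists held 0 called genes, against 0.0172% of all tested genes, and 0 at an unadjusted p under 0.05, against 6.98%, which for lists of this size is near the background. Of the 8 HCN channel partners 7 were tested, with a median log2 fold change of -0.021. Pex5l, which encodes the HCN subunit TRIP8b, averaged 94.7 ± 7.46 CPM in Kif2a_cKO and 96.1 ± 5.34 CPM in controls, a log2 fold change of -0.021 (SE 0.0712). Nedd4l, a ubiquitin ligase, Flna, an actin crosslinker, and Kctd3 stood at 0.024 (SE 0.163), 0.021 (SE 0.101) and -0.11 (SE 0.0767) on that scale. Of the 14 genes of calcium release and store-operated entry, 4 had a log2 fold change above 0 and 10 below, with a median of -0.024. The endoplasmic reticulum pump Atp2a2 had -0.11 (SE 0.0838), the inositol trisphosphate receptor Itpr3 -0.025 (SE 0.109), and the store-operated channels Orai1 and Orai3 -0.024 (SE 0.106) and 0.036 (SE 0.0758). The 7 genes of calcium extrusion had a median of -0.074, and the plasma membrane pumps Atp2b1, Atp2b2, Atp2b3 and Atp2b4 stood at 0.13 (SE 0.0824), -0.12 (SE 0.117), -0.074 (SE 0.135) and 0.091 (SE 0.138). In the 4 genes of the sodium leak channel the median was -0.084. Nalcn, its pore, stood at 0.021 (SE 0.0797), and its partners Unc80, Fam155a and Unc79 had -0.034 (SE 0.0918), -0.24 (SE 0.122) and -0.13 (SE 0.108).

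The authors' deposited table gave 0 of the 29 members a false discovery rate under 0.05. The share of all genes under that rate was not computed. Its log2 fold changes for Cacng8 and Cacna1g equal those of the DESeq2 fit above, made from the same counts. It is therefore not a separate result. In the authors' deposited table the lowest rate among them was 0.374 for Cacng8 (log2 fold change of KO over WT -1.06, p-value 0.00981), followed by 0.435 for Cacna1g (-1.14, p-value 0.0155).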

How the data were processed

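Per the labels' protocols, polyadenylated RNA of 10 dorsal root ganglion samples was sequenced. The submitters' processing notes name mm10 and the tools cutadapt, STAR and DESeq2. Which counter, annotation and strand setting made the table, and in which versions, is not given in the sources used here. Every test started from the raw counts that the authors deposited. The authors also deposited a normalized signal, regularised log2 values, and their own log2 fold change, p-value and fdrtools false discovery rate. Genes had at least 6 counts over the 10 libraries.

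In R 4.3.3, edgeR 4.0.16 kept genes by filterByExpr (minimum count 10, minimum total 15), which left 17439 of 23923. It scaled libraries by TMM and ran a robust quasi-likelihood F test on the group alone, adjusted over all tested genes. The standard error is the log2 fold change divided by the square root of F. CPM uses TMM-scaled totals, and log2 CPM adds a prior count of 2. Symbols were matched to GENCODE (97.6%). The tools were tested on simulated data, where DESeq2 1.42.0 made more false calls than edgeR or limma 3.58.1 (voom). Of the DESeq2 calls 10.4% were false, which was above the limit first set, so DESeq2 failed it. Its limit was then loosened. The simulation gave all genes the same dispersion and held no uneven tissue or pairing, so its rates of false calls need not hold for these libraries. Genes given in every library were the 12 members with the lowest p and the 2 with the highest level per length in each class. Of each list of related genes up to 4 are named: called, then at an unadjusted p under 0.05, then the most abundant per length. A member and a gene of the lists are counted in the totals and not reported here by name. Members, lists and alternatives were chosen with earlier results of these data known. Alternatives were other scalings and filters, DESeq2, limma-voom with quality weights, the replicate number as a block, the central marker score as a covariate, and leaving out libraries.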

Additional observations from a re-analysis of the deposited data

Results flagged for a closer look

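In 54 groups of 5 libraries (27 tested members in each genotype), 8 held a library whose gap to its nearest neighbour was more than 0.71 of the group's range, Dixon's limit at 95%. By chance about 1 group in 20 holds such a library if groups are independent. These groups are not, since all members were measured in the same 10 libraries, so the count is a description only. The share over all tested genes was not computed. Control 3 was the highest of the controls for 5 members: Cacna1i at 24.7 CPM (nearest 14.8), Cacng4 at 22.1 CPM (nearest 12.7), Cacng3 at 7.49 CPM (nearest 3.16), Hcn2 at 258 CPM (nearest 193) and Cacna2d4 at 1.74 CPM (nearest 0.770). Kif2a_cKO 5 was the lowest of its group for Cacna1a at 67.9 CPM (nearest 99.9) and for Cacng4 at 8.43 CPM (nearest 13.7), and the highest for Cacna2d4 at 1.011 CPM (nearest 0.484). Control 3 also had the highest central marker sum (2716 CPM), and Kif2a_cKO 5 the highest skeletal muscle marker sum (221 CPM). The part of either in these levels was not tested.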

How the results depend on the processing

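In every alternative 0 members were called. The number of all genes called was 3, and it was 39 with DESeq2, and 0 with at least 1 CPM required in 5 libraries, with the central marker score as a covariate and without controls 1, 3 and 5. Leaving out 1 library at a time gave 0 to 3. Members at an unadjusted p under 0.05 numbered 2, and 0 with limma-voom with quality weights, with the covariate and without controls 1, 3 and 5. Leaving out 1 library at a time gave 0 to 4, with 0 without Kif2a_cKO 1, 2 or 3 or control 3 (5.73%, 6.63%, 5.44% and 4.57% of all tested genes), 1 without control 5 (6.78%) and 4 of 27 without control 4 (8.08%). The cause was not tested.

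No member whose log2 fold change turned its sign was called in any fit. With the central marker score as a covariate the turned values were -0.077 for Cacna1b, -0.028 for Cacna1a, -0.11 for Cacna1h, -0.023 for Cacna2d1, -0.091 for Cacnb3, -0.074 for Cacnb1, 0.025 for Cacng4 and 0.057 for Cacng3. Without controls 1, 3 and 5 they were -0.14 for Cacna1b, -0.10 for Cacna1a, -0.22 for Cacna1h, 0.077 for Cacna1d, -0.11 for Cacna2d1, -0.046 for Cacna2d3, 0.0025 for Cacna2d4, -0.20 for Cacnb3, -0.19 for Cacnb1, 0.066 for Cacnb2, 0.13 for Cacng2, 0.12 for Cacng4, 0.35 for Cacng3, 0.13 for Cacng8 and -0.068 for Hcn3. With library totals alone they were -0.014 for Cacna1a and -0.025 for Cacna1h. With no filter on low counts they were -0.00064 for Cacna1h. With at least 1 CPM required in 5 libraries they were -0.0062 for Cacna1h. With DESeq2 they were -0.00098 for Cacna1h. With limma-voom they were -0.025 for Cacna1h, 0.00012 for Cacng7 and 0.11 for Cacng4. Leaving out 1 library at a time turned the sign of these log2 fold changes in at least 1 fit, with ranges of Cacna1b -0.078 to 0.12, Cacna1a -0.023 to 0.12, Cacna1h -0.10 to 0.071, Cacna1c -0.12 to 0.042, Cacna2d1 -0.027 to 0.13, Cacnb3 -0.077 to 0.15, Cacnb1 -0.063 to 0.15, Cacng4 -0.18 to 0.12, Cacng3 -0.50 to 0.094 and Hcn4 -0.18 to 0.0078.

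The replicate numbers were not taken to pair the samples. The labels give them no shared litter or day, and 1 of 5 correlations was negative. The sample titles do give Kif2a_cKO and control samples of the same replicate number consecutive sample numbers. Whether they were paired by design is not stated. The correlations of same-numbered samples, as deviations from their group means, were 0.177, 0.367, 0.140, -0.147 and 0.252, and 4 of the 5 correlated best with their own number, a hint of pairing from the data. With the replicate block the SE was smaller for several abundant members, at 0.0762 for Cacna1b, 0.0821 for Cacnb3 and 0.0671 for Cacnb1 against 0.148, 0.175 and 0.159 without it, and larger for Cacna1g (0.466 against 0.439), so the intervals given apply to unpaired samples. In that fit 0 genes were called, 1499 had an unadjusted p under 0.05 (8.6%) and 0 members had one.

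With 5 libraries a group and uneven amounts of other tissue, the intervals of the scarce members are wide: that of Cacna1g ran from -76.7% to -9.91% and that of Cacna2d4 from -69.0% to 18.4%. Bulk counts do not give cell types, counting strand is not given in the sources used here, and channel subunits were measured as RNA only.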
